A study of Homo sapiens with 8 samples.

Results

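SPIB was knocked down in H1703 cells that stayed attached, and the RNA levels of these cells are described here against those of attached control cells. H1703 is an established human line described as lung squamous cell carcinoma. The squamous markers that could be measured on their own, given below, were low in the attached libraries. The comparison rests on 4 of the 8 libraries of the series, chosen by their labels: 2 from attached cells with the SPIB knockdown and 2 from attached cells with a knockdown of luciferase, a firefly enzyme that human cells lack. The other 4 libraries come from the same pair of knockdowns in detached (floating) cells, and they are used here for the shared estimate of the spread and to set the effect in detached cells beside that in attached cells. The labels mention 12 hours of floating for every sample, attached ones too, and do not say how long the attached cells were kept. All groups come from 1 cell line. The design text names 2 biological repeats a group without saying what they share, so p-values here reflect only how far such repeats differ. The sources used here give neither the sequence of the reagent nor whether the knockdown was transient or stable.

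SPIB is a transcription factor of the ETS family, whose members bind DNA at sites with a purine-rich GGAA core. It is a close relative of PU.1 and is best known from B lymphocytes and plasmacytoid dendritic cells. The title of the series links it to resistance against anoikis, the death of cells that have lost their contact with the extracellular matrix, and to the autolysosome, the compartment formed when an autophagosome fuses with a lysosome. The comparison of attached cells asks what the knockdown changed in cells labelled as attached.

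SPIB could not be measured on its own. Its exons lie in a locus that the deposited tables merge with POLD1, a DNA polymerase subunit gene that dividing cells express, and with CTD-2545M3.6 (XLOC_025378, chromosome 19, 50887346 to 50934570, hg19). The merged locus had 47.5 and 52.5 FPKM (fragments scaled to transcript length and to library size) in the knockdown libraries, against 55.9 and 51.2 FPKM in the control libraries. The groups overlapped, the log2 fold change of −0.10 ± 0.08 (SE) did not pass the test (limma, adjusted p = 0.594), and the value cannot be split between the genes. The files therefore hold no check of the knockdown, and groups go by their labels.

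The libraries were alike in their totals and between replicates. FPKM summed to 786285 and 743467 in the knockdown libraries and to 732916 and 776025 in the control libraries, and between 13022 and 13093 loci reached 1 FPKM in these 4. Replicates differed by a median of 0.11 on the log2(FPKM + 1) scale in each of the attached groups. The absolute depth is unknown, since FPKM hold no read totals. Of the squamous markers, TP63 lay at 0.285 and 0.124 FPKM in the knockdown libraries and at 0.0859 and 0.128 FPKM in the control libraries, and DSG3 and PKP1 were below 0.1 FPKM in each, while KRT5, KRT6A and KRT14 lie only in merged loci. The knockdown replicates differed in TRIM29, at 1.02 and 0.0302 FPKM against 0.269 and 0.460 FPKM in controls. They also differed in SERPINB5, at 0.378 and 0 FPKM against 0.154 and 0.178 FPKM in controls. SOX2, the only squamous marker that entered the test, had 0.734 and 1.13 FPKM in the knockdown libraries against 1.82 and 1.99 FPKM in the control libraries (log2 fold change −0.60, limma, adjusted p = 0.166). Among epithelial markers KRT18 lay between 75.1 and 90.0 FPKM and KRT8 between 16.8 and 20.01 FPKM, whereas EPCAM and CDH1 did not exceed 0.225 FPKM. Among mesenchymal ones VIM lay between 2403 and 2550 FPKM, ZEB1 between 22.8 and 27.7 FPKM and TWIST1 between 8.61 and 11.6 FPKM. CDH2 lay between 8.21 and 9.94 FPKM and FN1 between 2.88 and 3.85 FPKM. ZEB2 lay between 0.509 and 1.97 FPKM and COL1A1 between 1.46 and 2.82 FPKM, whereas SNAI2 and SPARC did not exceed 0.372 FPKM. Markers of B lymphocytes were at or near 0, with the highest at 0.152 FPKM.

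After the knockdown 248 of 13438 tested genes and loci changed in attached cells, 86 of them higher and 162 lower. Among named genes the decreases were led by GPX4, a guard against lipid peroxides, and by ID2, a helix-loop-helix inhibitor, with log2 fold changes of −1.68 and −1.34. The increases were led by the collagenase MMP1 and the growth factor HBEGF, with 1.16 and 0.99. A change was called at a Benjamini-Hochberg adjusted p under 0.05 in a two-sided limma test on log2(FPKM + 1), and "rose" and "fell" are used only of genes that passed it. Values are given as log2 fold change ± SE unless named otherwise. The calls are 1.85% of all tested features, 0.64% for the higher and 1.21% for the lower ones. Counts of called members in the gene lists below are to be read beside these shares. In size they were mostly moderate, with a median log2 fold change of 0.41 among the higher and −0.49 among the lower ones, and only 12 passed 2-fold on FPKM + 1, 5 higher and 7 lower. The median over all tested features was 0.01, with 6928 values positive and 6501 negative. At an unadjusted p under 0.05 there were 2295 of the 13438, the share to set beside list counts at that level below. The values of the groups did not overlap for any of the 248, and they did not for 46.8% of all tested features, so a lack of overlap alone says little with 2 libraries a group. Among the calls, 31 are loci that merge several genes, 7 have no symbol and 4 are annotated pseudogenes. The 4 largest fitted increases, those of RP11-323N12.5, of the pseudogene GPX1P1 and of 2 loci without a symbol, came from features with a control library at or near 0 FPKM and are not described further.

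The number of calls depends on single libraries. It was 77 and 72 without attached knockdown replicate 1 or 2, 38 and 42 without attached control replicate 1 or 2, and 143, 143, 114 and 118 without detached knockdown replicate 1 or 2 or detached control replicate 1 or 2. Leaving out an attached library leaves 1 in its group, which is then assumed to vary like the other groups. Below, the attached libraries are called knockdown 1, knockdown 2, control 1 and control 2 where a call was lost without 1 of them, and the adjusted p of that fit stands in parentheses. Of the 248 calls, 27 (8 higher, 19 lower) were made without each of the 8 libraries in turn. From the 4 attached libraries alone 46 were called.

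**Figure D1:**
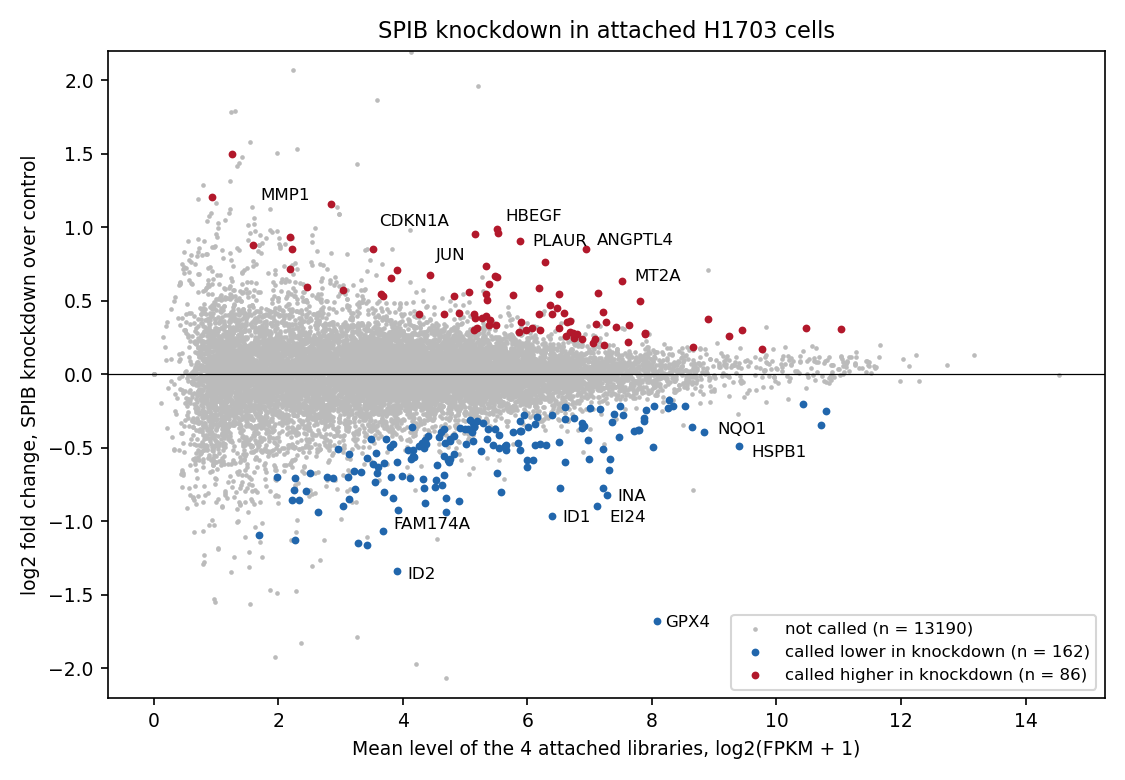
Each point is 1 of the 13438 tested genes or loci, with its mean level in the 4 attached libraries as log2(FPKM + 1) on the x axis and its log2 fold change, SPIB knockdown over control, on the y axis. Red points were called higher (86) and blue points called lower (162); 12 points, 2 of them called, lie beyond the y axis limits of −2.2 and 2.2, and GPX4 stands apart at the bottom for a gene of its level.

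GPX4 fell the most among the named genes. It encodes a selenoprotein, a protein that carries the amino acid selenocysteine, and it reduces lipid peroxides and so guards cells against ferroptosis, the form of death that iron-driven lipid peroxidation brings about. Its level was 126 and 129 FPKM in the knockdown libraries, against 411 and 409.5 FPKM in the control libraries (XLOC_024413, chromosome 19, 1103936 to 1106811, hg19). The replicates lay within a few FPKM of each other and the groups far apart, which gives 128 ± 2.81 against 410.5 ± 1.31 FPKM (SD, n = 2 each), a 3.2-fold decrease on FPKM + 1 and a log2 fold change of −1.68 ± 0.03 (SE, limma, adjusted p = 1.56e-06). The call was made without each of the 8 libraries and under each other setting tried, with a log2 fold change between −1.70 and −1.66 when 1 library was left out.

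No other selenoprotein gene of the list passed the test. Of 18 measured genes for selenoproteins and the machinery that inserts selenocysteine, GPX4 was the only one called. In this list 5 had an unadjusted p under 0.05, and the median log2 fold change was −0.08. Over all tested features 1.85% were called and 2295 of 13438 had an unadjusted p under 0.05. TXNRD1, a thioredoxin reductase and the most abundant of the list, had 766 and 793 FPKM in the knockdown libraries, against 716 and 759.5 FPKM in the control libraries. SEPHS2, which makes the selenium donor, had a log2 fold change of 0.20 (95% interval 0.09 to 0.31), and SECISBP2, which binds the selenocysteine insertion element of these mRNAs, one of −0.10 (−0.29 to 0.09).

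Ferritin loci and NQO1 were also lower. Of 24 measured genes of NRF2 targets, ferritin and glutathione metabolism 3 fell and 1 rose, with a median of −0.09. Over all tested features 1.21% fell and 0.64% rose. NQO1, a quinone reductase, had 397 and 396 FPKM in the knockdown libraries, against 522 and 518 FPKM in the control libraries (log2 fold change −0.39 ± 0.03, limma, adjusted p = 0.00309), a small decrease that was called without each of the 8 libraries. FTH1, the heavy chain of the iron store ferritin, had 1605 and 1647 FPKM in the knockdown libraries against 1911 and 1963 FPKM in the control libraries (−0.25 ± 0.04). The locus that merges the light chain gene FTL with BAX had 1457 and 1496 FPKM against 1897 and 1852 FPKM in controls (−0.34 ± 0.03), and FTL and BAX cannot be told apart in it. Ferritin genes have many near-identical pseudogenes, and how their reads were shared out is not given. EPHX1, an epoxide hydrolase, fell by 0.50 on the log2 scale, and HMOX1, heme oxygenase 1, was the gene that rose (0.28 ± 0.05, 258 and 262 FPKM in the knockdown libraries against 209 and 218 FPKM in the control libraries). The glutathione genes GCLC, GCLM, GSR and the cystine transporter SLC7A11 did not pass the test. The FTL locus was called without each of the 8 libraries. FTH1 was lost without any 1 of the 4 attached or the 2 detached control libraries (adjusted p = 0.0621 to 0.177), and HMOX1 without any 1 of the 4 attached or the 2 detached knockdown libraries (adjusted p = 0.071 to 0.188). EPHX1 was lost without any library other than knockdown 1 (adjusted p = 0.0611 to 0.194).

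The ID genes fell together. ID1, ID2 and ID3 encode inhibitors of DNA binding, helix-loop-helix proteins without a basic region that hold E proteins off DNA, and they are classic targets of BMP signalling through SMAD proteins. ID2 had 6.98 and 8.04 FPKM in the knockdown libraries, against 22.1 and 18.9 FPKM in the control libraries (2.53-fold lower on FPKM + 1, log2 fold change −1.34 ± 0.13, limma, adjusted p = 0.00527, chromosome 2, 8818975 to 8824583, hg19). For ID1 the values were 55.0 and 57.6 FPKM against 117 and 105 FPKM in controls (−0.96 ± 0.07, adjusted p = 0.00309, chromosome 20, 30181386 to 30194318). ID3, the most abundant of the family here, had 125 and 132 FPKM against 194 and 190.1 FPKM in controls (−0.58 ± 0.05, adjusted p = 0.0035). In each of the 3 genes both knockdown libraries lay below both control libraries by more than the replicates differed, which a call favours. The fourth member, ID4, had 0.907 and 1.06 FPKM in the knockdown libraries and 1.52 and 1.67 FPKM in the control libraries (−0.39 ± 0.17) and did not pass the test. ID1 and ID3 were called without each of the 8 libraries, and ID2 was lost without control 1 (adjusted p = 0.0518).

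A list of ID genes and BMP-SMAD targets was drawn up after the ID values were seen, so its count is no independent support for a direction. Of its 10 measured members 5 fell and none rose, and 9 had negative values (median −0.63, against 0.01 over all tested features). Over all tested features 1.21% fell and 6501 of 13438 values were negative. ATOH8, a basic helix-loop-helix factor, had 3.14 and 3.41 FPKM in the knockdown libraries against 6.98 and 7.41 FPKM in the control libraries (−0.94 ± 0.11). FSTL3, a secreted protein that binds activin, had 11.3 and 10.8 FPKM against 17.1 and 19.95 FPKM in controls (−0.69 ± 0.09). ATOH8 was lost without knockdown 1 (adjusted p = 0.0587), control 1 (0.0699) or control 2 (0.082), and FSTL3 without knockdown 1 (adjusted p = 0.0684), knockdown 2 (0.0817) or control 2 (0.0813). The inhibitory SMAD6 (0.970 and 0.601 against 2.40 and 1.43 FPKM in controls) and the BMP receptor BMPR2 did not pass the test, and SMAD7, another inhibitory SMAD, had a log2 fold change of 0.05 (95% interval −0.46 to 0.57).

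The remaining large decreases came from genes of unlike function. RMDN3, a tether between the endoplasmic reticulum and mitochondria, had 9.43 and 9.61 FPKM in the knockdown libraries, against 19.2 and 18.7 FPKM in the control libraries (−0.92 ± 0.08). FAM174A, which encodes a membrane protein, had 6.91 and 7.70 FPKM against 17.0 and 15.8 FPKM in controls (−1.07 ± 0.09). USP46, a deubiquitinating enzyme, had 4.50 and 5.06 FPKM against 9.65 and 9.85 FPKM in controls (−0.90 ± 0.11). RMDN3 and FAM174A were called without each of the 8 libraries, while USP46 was lost without any 1 of the 4 attached ones (adjusted p = 0.0518 to 0.102). At lower levels, CEBPD, a C/EBP transcription factor, had 2.02 and 2.03 FPKM against 5.18 and 6.05 FPKM in controls (−1.12 ± 0.15). CBY1, an antagonist of beta-catenin, had 5.83 and 4.34 FPKM against 13.3 and 11.5 FPKM in controls (−1.15 ± 0.16), and SAMD11 had 5.54 and 5.64 FPKM against 16.4 and 11.5 FPKM (−1.16 ± 0.16). The control replicates of SAMD11 differed from each other by nearly as much as their lower one did from the knockdown libraries. CEBPD was lost without any 1 of the 4 attached libraries (adjusted p = 0.0747 to 0.114). CBY1 was lost without knockdown 2 (adjusted p = 0.0844), control 1 (0.123) or control 2 (0.0865), and SAMD11 without knockdown 1 (adjusted p = 0.107), knockdown 2 (0.103) or control 1 (0.0774).

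Several abundant genes fell by smaller amounts with close replicates, and those named next were picked after their values were seen because they were called without each of the 8 libraries. EI24, a membrane protein of the endoplasmic reticulum that takes part in autophagy, had 93.7 and 97.9 FPKM in the knockdown libraries against 176 and 182 FPKM in the control libraries (−0.89 ± 0.05, adjusted p = 0.00103). TMED2, a cargo receptor of vesicles between the endoplasmic reticulum and the Golgi, had 111 and 107 FPKM against 190.5 and 184 FPKM in controls (−0.78 ± 0.04). For SEPT2, a septin of the cytoskeleton, the values were 119 and 124 FPKM against 194 and 190.1 FPKM (−0.65 ± 0.04). On the log2 scale PADI2, which turns arginine into citrulline in proteins, fell by 0.77, the splicing regulator PTBP3 by 0.72, the actin regulator ENAH by 0.59, the tetraspanin CD9 by 0.49 and the calcium-binding protein S100A6 by 0.43. INA, the neuronal intermediate filament alpha-internexin and a member of the list of intermediate filaments and cell junctions, had 108 and 114 FPKM against 200.1 and 193 FPKM in controls (−0.82 ± 0.04, adjusted p = 0.000718) and was likewise called without each of the 8 libraries. NOMO1, NOMO2 and NOMO3, near-identical copies on chromosome 16 whose reads cannot be told apart, fell by 0.48 to 0.63 on the log2 scale.

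**Figure D2:**
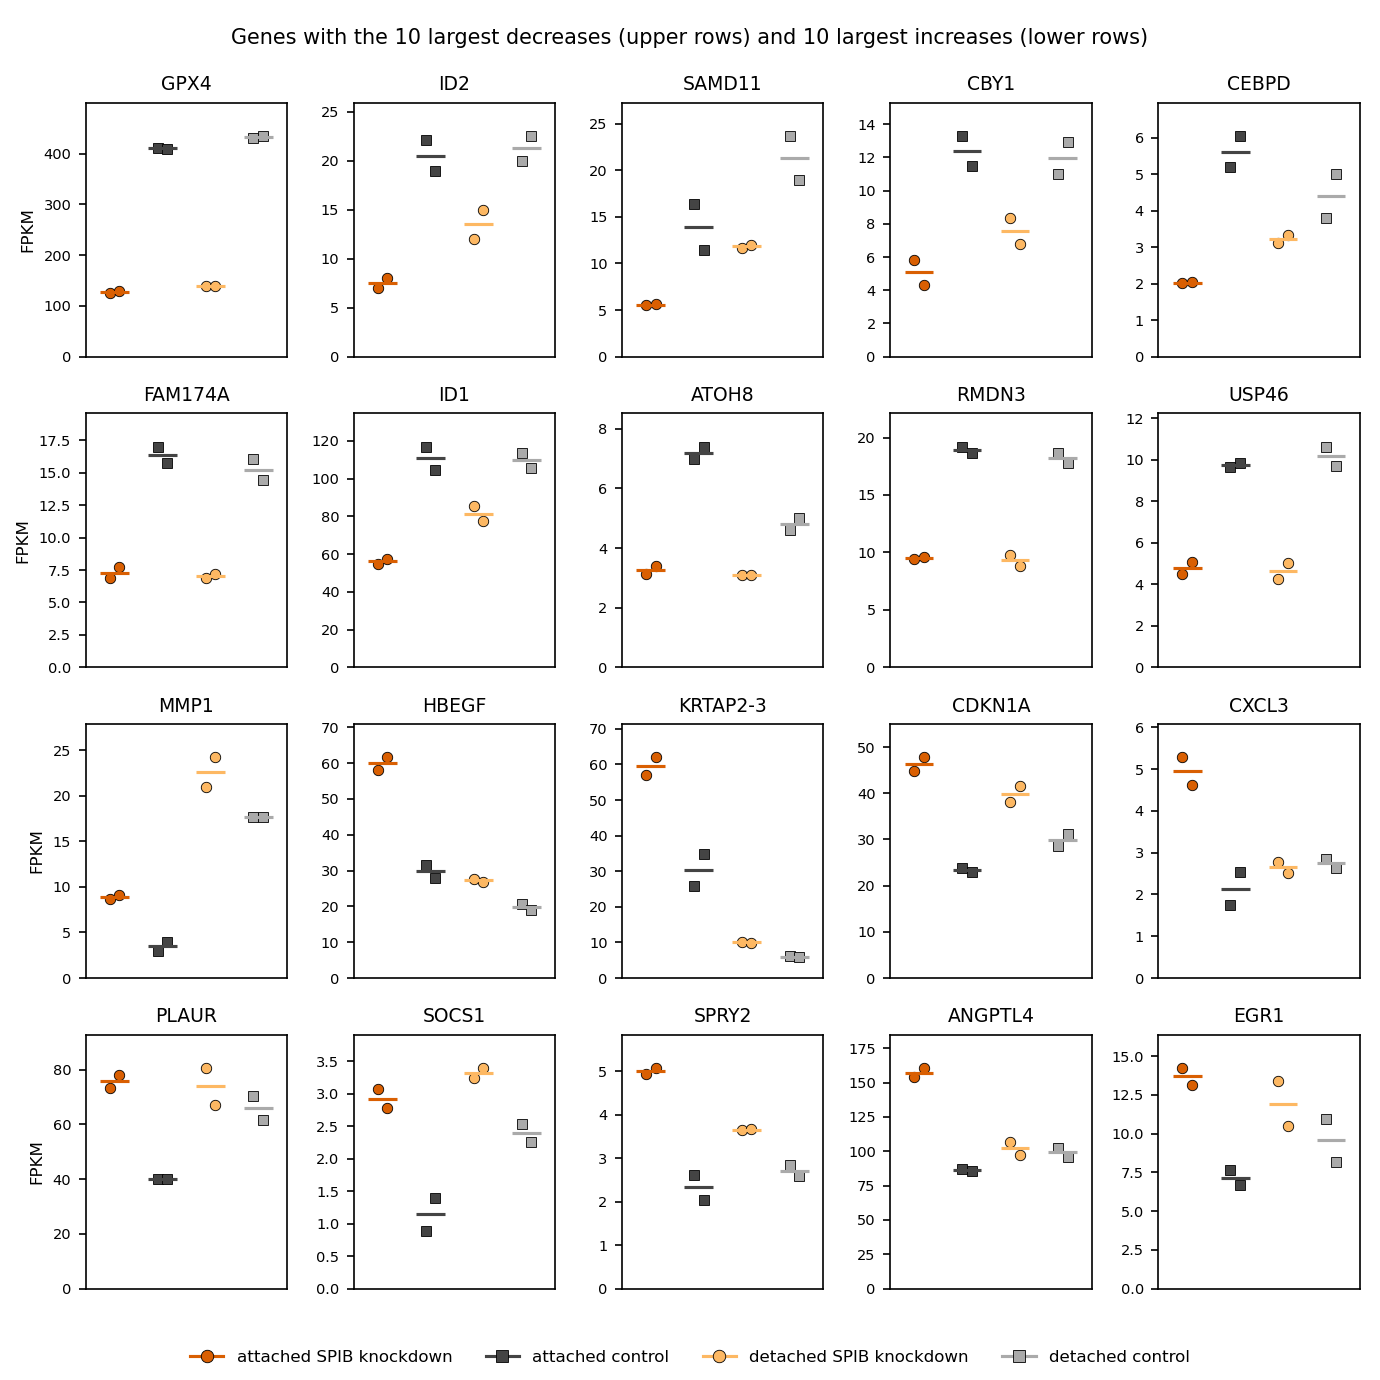
FPKM in each library (points) and group means (bars) for the 10 called genes with the largest decreases (upper 2 rows) and the 10 with the largest increases (lower 2 rows), with attached SPIB-knockdown cells leftmost in each panel, then attached control, detached SPIB-knockdown and detached control cells. In attached cells the groups do not overlap in any panel, as the choice of these genes requires. In detached cells the knockdown and control points of the lower panels lie closer together, as for ANGPTL4 with 107 and 97.4 FPKM in detached knockdown against 102 and 96.1 FPKM in detached control libraries.

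The increases included HBEGF and 5 genes of the early response to growth factors. HBEGF, a ligand of the EGF receptor that is shed from the cell surface, had 58.2 and 61.7 FPKM in the knockdown libraries, against 31.5 and 28.0 FPKM in the control libraries (1.98-fold higher on FPKM + 1, log2 fold change 0.99 ± 0.08, limma, adjusted p = 0.00309, chromosome 5, 139712426 to 139738452, hg19). JUN, a subunit of the AP-1 transcription factor, had 48.3 and 50.6 FPKM against 29.3 and 29.4 FPKM in controls (0.73 ± 0.05, adjusted p = 0.00309). In both genes the groups lay far apart relative to their replicates, which a call favours. Both were called without each of the 8 libraries. The receptor EGFR itself had 58.9 and 57.3 FPKM in the knockdown libraries and 62.7 and 64.1 FPKM in the control libraries and did not pass the test.

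Of 27 measured members of a list of early response transcription factors and their feedback genes 5 rose, beside 0.64% of all tested features. The 3 that fell, beside 1.21%, were ID1, ID2 and ID3, and the median of the list was 0.32. The genes that rose were JUN, EGR1, DUSP5, SPRY2 and SPRY4. EGR1, a zinc finger factor, had 14.2 and 13.2 FPKM in the knockdown libraries against 7.66 and 6.67 FPKM in the control libraries (0.85 ± 0.16). DUSP5, a nuclear phosphatase that inactivates ERK, had 18.2 and 16.9 FPKM against 10.1 and 10.6 FPKM in controls (0.71 ± 0.08). Of the inhibitors of receptor tyrosine kinase signalling, SPRY2 had 4.93 and 5.07 FPKM against 2.62 and 2.04 FPKM in controls (0.86 ± 0.13), and SPRY4 48.5 and 50.2 FPKM against 33.6 and 30.4 FPKM (0.61 ± 0.06). Other members had positive values without passing the test, such as the ERK phosphatase DUSP6 at 0.82 (95% interval 0.39 to 1.24), KLF2 at 0.49 (0.20 to 0.78) and FOS at 0.42 (0.11 to 0.72). JUNB at −0.09 (−0.23 to 0.05) and MYC at 0.12 (−0.01 to 0.26) lay near 0. The calls of EGR1 (adjusted p = 0.0523 to 0.215) and SPRY2 (adjusted p = 0.0548 to 0.134) were lost when any 1 of the 8 libraries was left out. SPRY4 was lost without knockdown 2 (adjusted p = 0.0518) or control 2 (0.0539), and DUSP5 without knockdown 1 (adjusted p = 0.0622), control 1 (0.0755) or control 2 (0.0688).

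A second list, of genes that report ERK output and its feedback, was made after these values were seen and shares JUN, EGR1, DUSP5, SPRY2 and SPRY4 with the first. Of 19 measured members 9 rose and none fell, and 17 had positive values (median 0.38). Over all tested features 0.64% rose and 6928 of 13438 values were positive. PHLDA1, a regulator of cell death that growth factors induce, had 38.4 and 39.1 FPKM in the knockdown libraries against 25.7 and 26.3 FPKM in the control libraries (0.56 ± 0.06), and LIF, a cytokine of the interleukin 6 family, 98.6 and 90.0 FPKM against 66.8 and 68.4 FPKM (0.47 ± 0.06). ERRFI1 is not on this list but on one of EGF receptor ligands and receptors, also made afterwards, of which 2 of 4 measured rose, HBEGF and ERRFI1 (median 0.19). The ETS factor ETV4 (0.38 ± 0.06) and the ephrin receptor EPHA2 (0.29 ± 0.05) rose by less. ERRFI1, a feedback inhibitor of the EGF receptor, had 271 and 248.8 FPKM in the knockdown libraries against 197 and 172 FPKM in the control libraries (0.50 ± 0.08). CCND1, which encodes cyclin D1, was at 111 and 129.8 FPKM in the knockdown libraries and 103 and 98.8 FPKM in the control libraries and did not pass the test. PHLDA1 was lost without control 1 (adjusted p = 0.0537), LIF without control 1 (adjusted p = 0.082) or control 2 (0.0739), and ERRFI1 without knockdown 1 (adjusted p = 0.123), knockdown 2 (0.0699), control 2 (0.124), detached control 1 (0.0516) or detached control 2 (0.0523). ETV4 was lost without any 1 of the 4 attached or the 2 detached control libraries (adjusted p = 0.0592 to 0.143) and EPHA2 without any 1 of the 8 (adjusted p = 0.0572 to 0.166).

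Some genes of proteolysis at the cell surface rose as well. MMP1, the collagenase that cleaves fibrillar collagen, had 8.68 and 9.16 FPKM in the knockdown libraries, against 2.99 and 3.94 FPKM in the control libraries (2.23-fold higher on FPKM + 1, 1.16 ± 0.12, limma, adjusted p = 0.00683, chromosome 11, 102655725 to 102668968, hg19). PLAUR, the receptor that holds urokinase at the membrane, had 73.3 and 78.1 FPKM against 39.9 and 40.0 FPKM in controls (0.90 ± 0.10, adjusted p = 0.00686, chromosome 19, 44150247 to 44174699). TFPI2, a secreted serine protease inhibitor, had 85.9 and 86.4 FPKM against 60.1 and 53.9 FPKM in controls (0.59 ± 0.06). These 3 were the only members that passed the test among 12 measured genes of the urokinase system, matrix metalloproteinases and their inhibitors. That list was made after the values were seen (median 0.38). Over all tested features 0.64% rose. Urokinase itself, PLAU, was at 3.604 and 4.15 FPKM in the knockdown libraries and 3.22 and 2.46 FPKM in the control libraries and did not pass. TFPI2 was called without each of the 8 libraries, MMP1 was lost without knockdown 2 (adjusted p = 0.0512), and PLAUR without knockdown 2 (adjusted p = 0.0531), control 1 (0.068) or control 2 (0.0688).

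ANGPTL4, a secreted inhibitor of lipoprotein lipase that is also deposited in the matrix, had 154 and 161 FPKM in the knockdown libraries, against 87.4 and 85.9 FPKM in the control libraries (1.81-fold higher on FPKM + 1, 0.85 ± 0.06, limma, adjusted p = 0.00213, chromosome 19, 8427750 to 8439257, hg19). It was called without each of the 8 libraries and under each other setting tried. CXCL3, a chemokine for neutrophils, was low in all libraries and rose, with 5.29 and 4.61 FPKM in the knockdown libraries against 1.74 and 2.54 FPKM in the control libraries (0.93 ± 0.16). SOCS1, an inhibitor of cytokine signalling, rose likewise, with 3.07 and 2.78 FPKM against 0.885 and 1.401 FPKM in controls (0.88 ± 0.16). Both calls were lost without any 1 of the 8 libraries (adjusted p = 0.0667 to 0.16 for CXCL3 and adjusted p = 0.0811 to 0.173 for SOCS1). KRTAP2-3, one of 2 nearly identical copies of a keratin-associated gene, had 57.2 and 62.0 FPKM against 25.97 and 34.8 FPKM in controls (0.96 ± 0.13). Its value is uncertain for that reason, and its call was lost without knockdown 1 (adjusted p = 0.0744) or knockdown 2 (0.102), and also when loci of 1 symbol were kept apart (0.116). In a list of 19 measured chemokines, cytokines and receptors 2 rose, beside 0.64% of all tested features. These were CXCL3 and LIF, and the median of the list was 0.05. The 1 that fell was IL27RA, a subunit of the interleukin 27 receptor, with 14.7 and 13.3 FPKM in the knockdown libraries against 24.6 and 24.5 FPKM in the control libraries (−0.77 ± 0.08). IL27RA was lost without control 1 (adjusted p = 0.068) or control 2 (0.0688).

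Among integrins and basement membrane genes 3 of 18 measured members rose and none fell, beside 0.64% and 1.21% of all tested features. All 3 were integrin subunits, and the median of the list was −0.02. ITGA6, a subunit of laminin receptors, had 162 and 169 FPKM in the knockdown libraries, against 111 and 115 FPKM in the control libraries (0.55 ± 0.05, limma, adjusted p = 0.0035), and was called without each of the 8 libraries. ITGA2, a subunit of a collagen receptor, had 5.89 and 5.39 FPKM against 3.40 and 3.38 FPKM in controls (0.60 ± 0.10), and ITGB5, which pairs with the alpha V subunit to bind vitronectin, 146 and 147 FPKM against 123 and 124 FPKM (0.24 ± 0.04). The calls of ITGA2 (adjusted p = 0.07 to 0.167) and ITGB5 (adjusted p = 0.0572 to 0.185) were lost without any 1 of the 8 libraries. ITGB1, the most abundant integrin subunit of the list, was at 377 and 373 FPKM in the knockdown libraries and 342 and 359.6 FPKM in the control libraries and did not pass, nor did any laminin or collagen IV gene measured.

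CDKN1A, which encodes the cyclin-dependent kinase inhibitor p21, had 44.8 and 47.8 FPKM in the knockdown libraries, against 23.9 and 22.9 FPKM in the control libraries (1.94-fold higher on FPKM + 1, 0.95 ± 0.07, limma, adjusted p = 0.00309, chromosome 6, 36644305 to 36655116, hg19), and was called without each of the 8 libraries. Of 17 measured p53 targets 2 rose and none fell, beside 0.64% and 1.21% of all tested features (median of the list 0.12). The other one was AEN, an exonuclease gene, with 33.9 and 32.7 FPKM against 25.4 and 24.0 FPKM in controls (0.41 ± 0.06), a call lost without any 1 of the 8 libraries (adjusted p = 0.0526 to 0.146). MDM2, the ubiquitin ligase of p53, was at 0.48 (95% interval 0.10 to 0.87) and the sestrin SESN2 at 0.63 (0.30 to 0.96), without passing the test, and BTG2, XPC and BBC3 lay near 0. No gene of the cell cycle lists was called by limma. Of 37 measured genes of S phase and DNA replication 2 had an unadjusted p under 0.05 (median −0.03), and of 29 genes of mitosis 5 (median −0.03). Over all tested features 2295 of 13438 had such a p. Of 23 measured members of the BCL2 family and caspases none was called and 6 had an unadjusted p under 0.05 (median 0.05). Among them BCL2 was at −0.36 (−0.72 to −0.00). MCL1 lies only in a locus merged with ADAMTSL4-AS1, which rose by 0.42 ± 0.04 (172 and 167 FPKM in the knockdown libraries against 124 and 128 FPKM in the control libraries).

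Stress genes were split. Metallothioneins, small proteins that bind zinc and copper, were picked after their values were seen, and 2 of 4 measured rose (median 0.53). Over all tested features 0.64% rose and 1.21% fell, shares that apply to each count in this paragraph. MT2A had 223 and 221 FPKM in the knockdown libraries against 139 and 147 FPKM in the control libraries (0.63 ± 0.06), and MT1X 98.6 and 95.3 FPKM against 62.6 and 51.4 FPKM (0.76 ± 0.10), while MT1E and MT1L did not pass the test. The members are close in sequence, so their values are uncertain. MT2A was called without each of the 8 libraries, and MT1X was lost without knockdown 1 (adjusted p = 0.0873), knockdown 2 (0.0738) or control 2 (0.0671). Of 17 measured heat shock genes 1 fell and 1 rose (median −0.02). HSPB1, a small heat shock protein, fell with 549 and 570.2 FPKM in the knockdown libraries against 816 and 758 FPKM in the control libraries (−0.49 ± 0.04), and was called without each of the 8 libraries. HSPA8, the constitutive cytosolic HSP70, rose with 2315 and 2319 FPKM against 1878 and 1870.5 FPKM in controls (0.31 ± 0.03), and was lost without control 1 (adjusted p = 0.07) or control 2 (0.0739). Of 28 ATF4 targets of the integrated stress response 23 had positive values (median 0.10), beside 6928 of 13438 over all tested features, but 1 rose and 1 fell. ASNS, asparagine synthetase, rose by 0.24 ± 0.04, a call lost without any 1 of the 8 libraries (adjusted p = 0.0663 to 0.208). SLC7A5, a transporter of large neutral amino acids, fell, with 125 and 119 FPKM in the knockdown libraries against 182 and 167 FPKM in the control libraries (−0.51 ± 0.07), and was lost without any 1 of the 4 attached libraries (adjusted p = 0.0739 to 0.123). Of 19 measured chaperone genes of the endoplasmic reticulum SEL1L, an adaptor of the degradation machinery, was the one called, with 19.6 and 20.7 FPKM in the knockdown libraries against 43.4 and 32.3 FPKM in the control libraries (−0.86 ± 0.14). It was lost without any library other than control 2 (adjusted p = 0.0548 to 0.149). The median of that list was 0.01 and turned to −0.01 when totals left out small RNA, rRNA and mitochondrial genes.

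Some genes of the lysosome and autophagy lists were called, beside 1.85% of all tested features. EI24, named above as taking part in autophagy, also fell but is on none of these lists. The median of the lysosome list lay below that of all genes, and that of the autophagy list close to it. Of 48 measured genes of lysosomal hydrolases and membrane proteins 3 fell and 1 rose, beside 1.21% and 0.64% of all tested features. The median log2 fold change of this list was −0.10, against 0.01 over all tested features. In this list 32 values were negative, beside 6501 of 13438 over all tested features. LIPA, the acid lipase that splits cholesteryl esters in the lysosome, had 14.2 and 12.7 FPKM in the knockdown libraries, against 25.9 and 25.03 FPKM in the control libraries (−0.87 ± 0.10, limma, adjusted p = 0.00907). LAMP2, a membrane glycoprotein needed for chaperone-mediated autophagy and for fusion with autophagosomes, had 48.5 and 46.5 FPKM against 63.7 and 68.5 FPKM in controls (−0.47 ± 0.05, adjusted p = 0.00907). SLC17A5, which exports sialic acid, had 5.61 and 5.27 FPKM against 8.43 and 7.86 FPKM in controls (−0.51 ± 0.09). The cysteine protease CTSL rose, with 212 and 229 FPKM against 175 and 174 FPKM in controls (0.34 ± 0.04). LIPA was lost without knockdown 2 (adjusted p = 0.0626), control 1 (0.0819) or control 2 (0.0739), and LAMP2 without knockdown 2 (adjusted p = 0.0645) or control 2 (0.0739). CTSL was lost without knockdown 2 (adjusted p = 0.0531), control 1 (0.0874) or control 2 (0.11), and SLC17A5 without any 1 of the 8 libraries (adjusted p = 0.0722 to 0.183).

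LAMP1, the sister of LAMP2, was at 147 and 150.1 FPKM in the knockdown libraries and 162 and 153 FPKM in the control libraries (−0.08 ± 0.04), and CTSB, a lysosomal cysteine protease, at 96.5 and 95.8 FPKM in the knockdown libraries and 101 and 109 FPKM in the control libraries (−0.12 ± 0.05). Neither passed the test. Of 35 measured genes of autophagy initiation, conjugation and receptors only CALCOCO2, a receptor for bacteria and mitochondria, was called. It had 103 and 109 FPKM in the knockdown libraries against 87.6 and 88.6 FPKM in the control libraries (0.26 ± 0.05), and the call was lost without any 1 of the 8 libraries (adjusted p = 0.0708 to 0.193). The median of that list was 0.00, and it turned to −0.01 with median of ratios scaling and with rescaling to totals that leave out small RNA, rRNA and mitochondrial genes. None of 18 measured genes of autophagosome-lysosome fusion was called by limma (median 0.03). At an unadjusted p under 0.05 there were 2 of them, beside 2295 of 13438 over all tested features. For SNAP47, a SNARE protein, the levels were 22.9 and 20.9 FPKM in the knockdown libraries and 24.0 and 24.0 FPKM in the control libraries (log2 fold change −0.13, 95% interval −0.32 to 0.06). MAP1LC3B, which encodes the autophagosome protein LC3B, had a log2 fold change of 0.19 (0.04 to 0.34), and the cargo receptor SQSTM1 one of −0.12 (−0.20 to −0.03). TFEB, the transcription factor that drives lysosomal genes, had 7.95 and 7.10 FPKM in the knockdown libraries and 10.9 and 11.1 FPKM in the control libraries, a log2 fold change of −0.50 (−0.73 to −0.27) that did not pass (limma, adjusted p = 0.0589). These intervals are not adjusted for the number of genes.

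**Figure D3:**
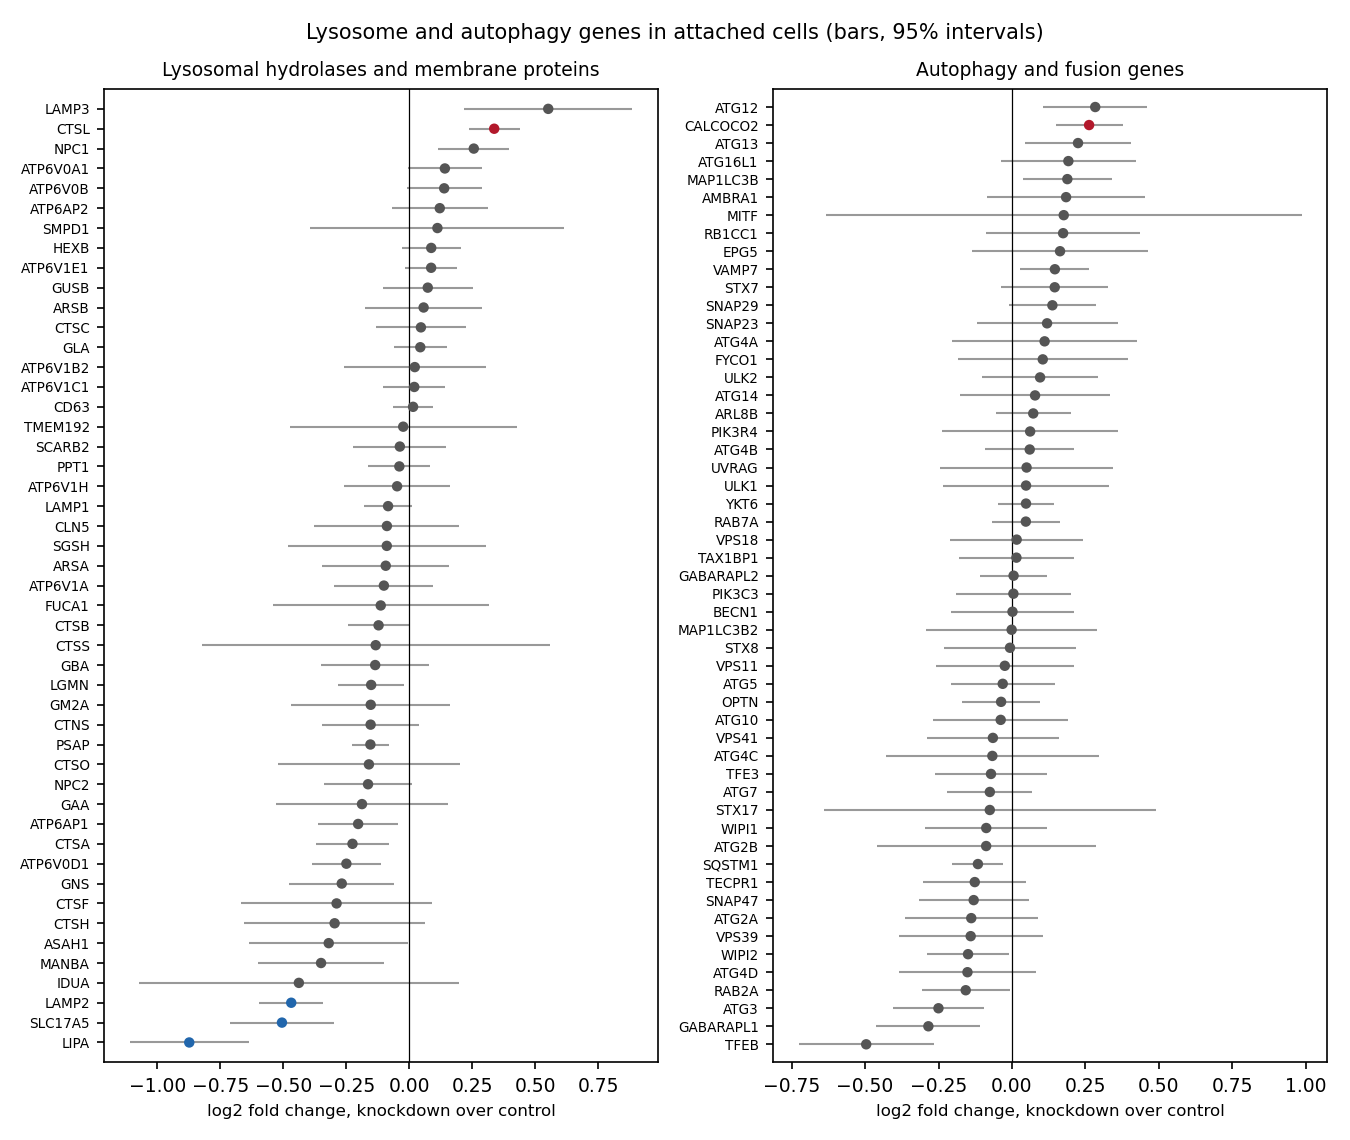
Log2 fold change in attached cells, SPIB knockdown over control, of each measured gene of the lysosome list (left) and of the autophagy and fusion lists (right), with bars for the unadjusted 95% interval from limma; blue genes were called lower and red genes higher. On the left most points lie below 0, with LIPA lowest at −0.87, and on the right they lie on both sides of 0.

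The lists of actin and adhesion genes, YAP-TEAD targets and ETS family genes held 2 calls each, beside a share of 1.85% over all tested features. Of 25 genes of the actin cytoskeleton and focal adhesions LASP1 (−0.35 ± 0.05) and the filamin FLNA (−0.22 ± 0.04) fell (median 0.03). Of 17 measured YAP-TEAD targets 2 rose (median 0.13): the matricellular protein CTGF, with 98.1 and 92.2 FPKM in the knockdown libraries against 70.7 and 71.9 FPKM in the control libraries (0.41 ± 0.05), and the ectonucleotidase NT5E (0.40 ± 0.05). CYR61 and AMOTL2 did not pass the test. Of 14 measured ETS family genes ELK3 and ETV4 rose (median 0.08). ELK3, a repressor that turns activator under ERK signalling, had 53.6 and 56.4 FPKM against 33.3 and 35.4 FPKM in controls (0.66 ± 0.06, limma, adjusted p = 0.00438). ELK3 was called without each of the 8 libraries. LASP1 (adjusted p = 0.0775 to 0.134), CTGF (adjusted p = 0.0518 to 0.104) and NT5E (adjusted p = 0.0595 to 0.0874) were lost without any 1 of the 4 attached ones, and FLNA (adjusted p = 0.0614 to 0.199) without any 1 of the 8.

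Metabolic and structural lists held at most 2 calls each, beside 1.85% of all tested features. In hypoxia and glycolysis (25 measured) the repressor BHLHE40 rose (0.54 ± 0.06) and the phosphofructokinase PFKM fell (−0.44 ± 0.07), with a median of −0.00 that turned to 0.01 with the attached libraries alone. In cholesterol and fatty acid synthesis (32 measured, median −0.08) the desaturase SCD fell (−0.30 ± 0.04). In intermediate filaments and junctions (24 measured, median −0.05) LMNA, which encodes lamin A/C, fell beside INA (−0.30 ± 0.04). BHLHE40 was lost without control 1 (adjusted p = 0.0755) or control 2 (0.0774), and LMNA without knockdown 1 (adjusted p = 0.0622), control 1 (0.0847) or control 2 (0.0865). SCD was lost without any 1 of the 4 attached libraries (adjusted p = 0.0534 to 0.124), and PFKM without any 1 of the 8 (adjusted p = 0.057 to 0.182). Among 26 genes of the interferon response and antigen presentation limma called none, with 8 at an unadjusted p under 0.05 (median −0.07). The same holds for 38 genes of the respiratory chain, with 7 at that level (−0.05). It also holds for 11 of the RNA interference machinery, with 1 (0.01, and −0.00 when totals left out small RNA, rRNA and mitochondrial genes). Over all tested features 2295 of 13438 were at that level.

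Host genes of small nucleolar RNAs, whose introns release the guides of ribosomal RNA modification, were listed after their values were seen. Of 14 measured 6 rose and none fell, beside 0.64% and 1.21% of all tested features (median of the list 0.19). SNHG5 had 195 and 186 FPKM in the knockdown libraries against 155 and 149 FPKM in the control libraries (0.32 ± 0.05), C6orf48 1534 and 1621 FPKM against 1250.1 and 1285 FPKM (0.31 ± 0.04) and ZFAS1 96.3 and 103 FPKM against 80.6 and 79.4 FPKM (0.31 ± 0.06). The other 3, RPL27A (0.18 ± 0.03), HSPA8 and TPT1 (0.17 ± 0.03), also encode abundant proteins. Of 62 measured cytosolic ribosomal protein genes 55 had positive values, beside 6928 of 13438 over all tested features. Their median was 0.06, which was 0.02 with the scaling that moved it most. Apart from RPL27A only RPL31 was called, lower (−0.20 ± 0.04). Many processed copies of such genes exist, and how their reads were shared out is not given. Without any 1 of the 8 libraries RPL27A (adjusted p = 0.0618 to 0.182), ZFAS1 (adjusted p = 0.055 to 0.208) and TPT1 (adjusted p = 0.0611 to 0.182) were lost. RPL31 was lost without any 1 of the 4 attached or the 2 detached control libraries (adjusted p = 0.0663 to 0.208), SNHG5 without any 1 of the 4 attached libraries (adjusted p = 0.0609 to 0.132) and C6orf48 without knockdown 2 (adjusted p = 0.0599), control 1 (0.0889) or control 2 (0.0739).

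**Figure D4:**
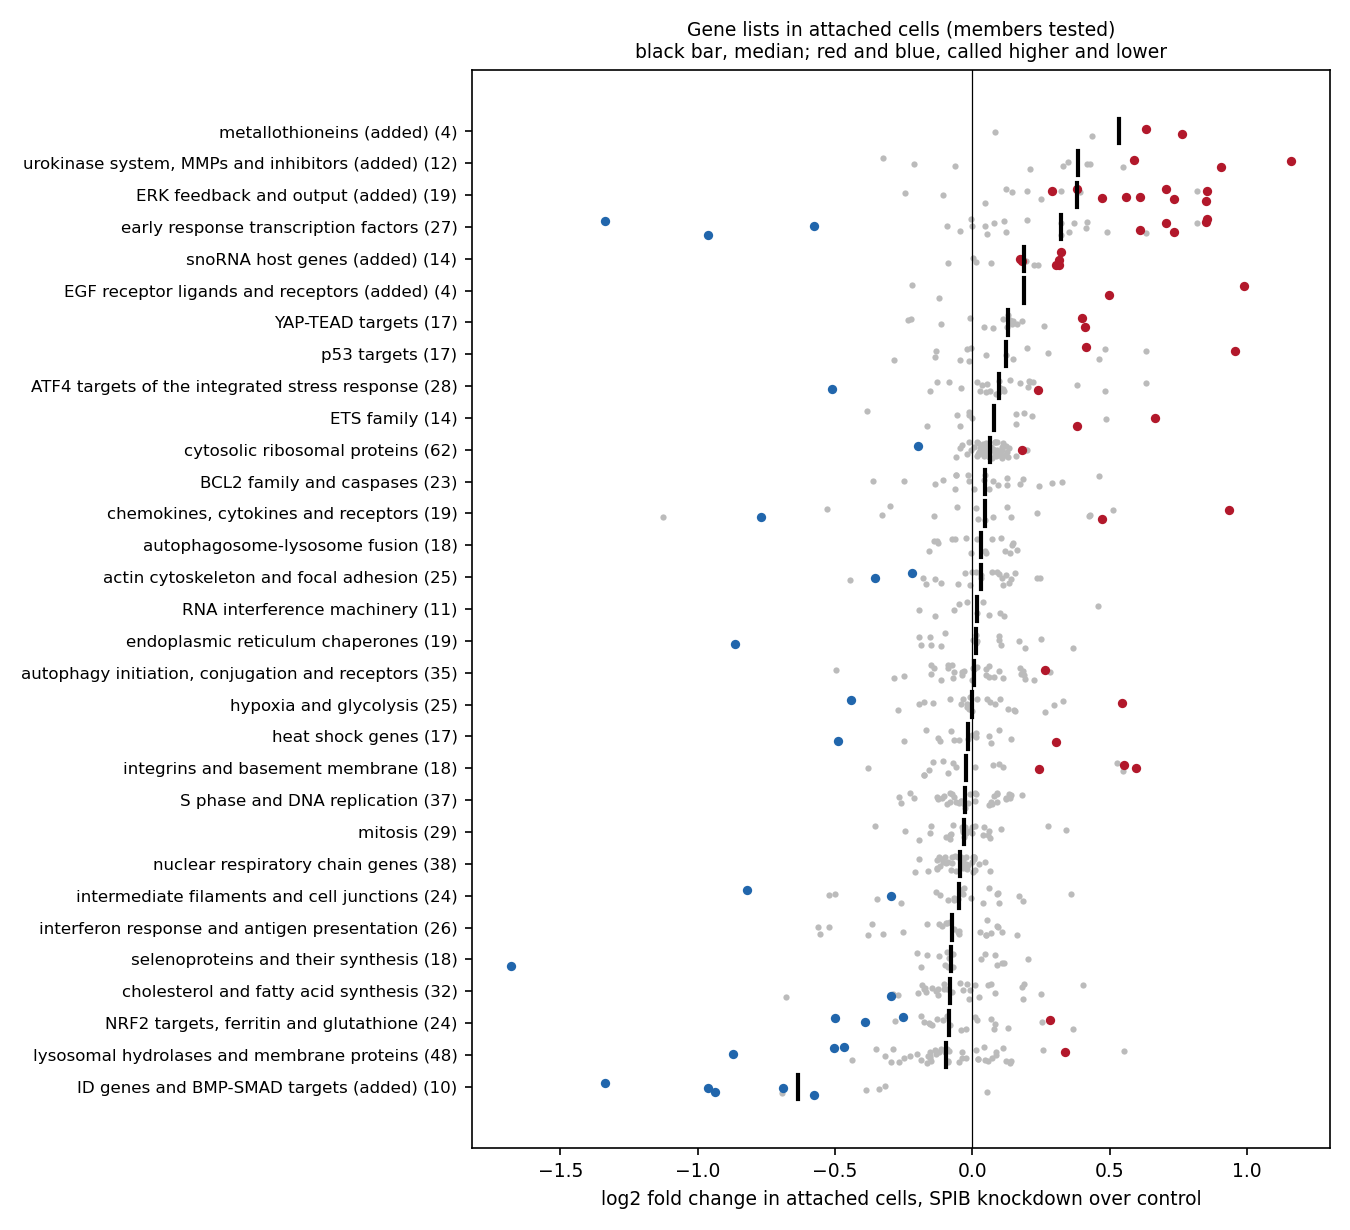
Log2 fold change in attached cells, SPIB knockdown over control, of the measured members of each gene list (number tested in parentheses), ordered by the list median (black bar). Red points were called higher and blue points lower; the lists marked as added were chosen after the values were seen, and the early response list and the added ones for ID genes, ERK output, urokinase and metallothioneins hold the medians farthest from 0.

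The promoters of the genes with the largest changes were searched for 2 sequences that ETS factors read and for 1 that AP-1 reads. The windows run from 250 bases before to 50 bases after the start of each gene in RefSeq (GRCh38.p14), both strands were read, and 18 of the 20 genes had an entry. GAGGAA, the purine-rich core favoured by SPIB and PU.1, was present in 27.6% of all promoters in the table, GGAAGT, a common ETS core, in 23.2%, and TGACTCA, the AP-1 site, in 4.92%. Among tested genes (7505 of 11796 with a single symbol matched), the pool of the calls, they were present in 26.8%, 26.9% and 2.61%. Among genes called higher (61 of 75 matched) the shares were 34.4%, 24.6% and 3.28%, and among genes called lower (105 of 142 matched) 27.6%, 20% and 1.9%. The AP-1 sequence was added after the values were seen. The windows of 4 genes are shown, to set the gene that fell most and holds no match beside others that hold a match, 1 that fell and 2 that rose. They read 5′ to 3′ along the gene, in lower case with every match in capitals:
GPX4, chr19:1103744-1104043, plus strand: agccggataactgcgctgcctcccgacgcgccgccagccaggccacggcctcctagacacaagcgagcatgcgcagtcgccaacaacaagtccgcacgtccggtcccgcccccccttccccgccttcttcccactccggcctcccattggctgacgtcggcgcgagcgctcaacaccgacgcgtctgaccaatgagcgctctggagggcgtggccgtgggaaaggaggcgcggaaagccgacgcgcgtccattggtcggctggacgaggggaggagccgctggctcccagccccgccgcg
FAM174A, chr5:100535124-100535423, plus strand: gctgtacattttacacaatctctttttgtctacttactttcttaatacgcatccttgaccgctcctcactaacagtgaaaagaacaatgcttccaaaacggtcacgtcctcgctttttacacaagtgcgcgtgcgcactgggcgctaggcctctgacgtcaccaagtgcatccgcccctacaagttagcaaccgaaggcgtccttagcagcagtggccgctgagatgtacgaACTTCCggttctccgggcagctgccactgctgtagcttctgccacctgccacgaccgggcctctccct
PLAUR, chr19:43670120-43670419, minus strand: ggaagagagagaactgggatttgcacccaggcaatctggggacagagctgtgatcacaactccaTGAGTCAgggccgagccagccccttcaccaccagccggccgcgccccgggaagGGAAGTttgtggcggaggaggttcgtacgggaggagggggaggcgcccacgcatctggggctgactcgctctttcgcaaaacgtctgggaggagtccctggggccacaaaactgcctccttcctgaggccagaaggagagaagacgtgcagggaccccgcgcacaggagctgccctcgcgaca
ANGPTL4, chr19:8363905-8364204, plus strand: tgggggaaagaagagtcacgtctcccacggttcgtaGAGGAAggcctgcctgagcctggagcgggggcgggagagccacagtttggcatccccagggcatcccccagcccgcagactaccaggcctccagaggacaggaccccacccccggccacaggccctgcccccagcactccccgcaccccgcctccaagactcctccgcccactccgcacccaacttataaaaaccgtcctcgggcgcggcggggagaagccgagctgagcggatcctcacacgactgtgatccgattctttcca
The window of GPX4 holds none of the 3 sequences. That of FAM174A holds GGAAGT on the other strand, with its first base 18 before the start, and that of ANGPTL4 holds GAGGAA at 214 before the start. The PLAUR window holds GGAAGT at 133 before the start and the AP-1 sequence on the other strand at 186 before it. CBY1 and SPRY2 also hold GAGGAA and CDKN1A GGAAGT. A match is only a run of letters in this window and says nothing about what bound there in these cells.

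The genes called in attached cells were next looked up in detached cells, where the same knockdown was compared with the same control in libraries of their own. There, 99 of the 13438 tested features were called (0.737%), 10 higher and 89 lower. Of the 248 calls in attached cells, 69 were called in the same direction in detached cells, which is 27.8% of the attached and 69.7% of the detached calls, and none was called in the opposite direction. For the lower genes the shared calls were 63, 38.9% of those in attached and 70.8% of those in detached cells, and for the higher genes 6, 6.98% and 60%. These 6 were ASNS, TPT1 and the host loci of small nucleolar RNAs C6orf48, SNHG5, ZFAS1 and SNORD78|GAS5. The fold changes of the attached and detached comparisons share no library. Their tests, however, share the spread of each gene, estimated from all libraries together. A gene with a small spread is therefore favoured in both tests, and the shared calls are not independent.

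GPX4 was low in detached knockdown cells too, with 139 and 140.0 FPKM in detached knockdown libraries against 430.0 and 435 FPKM in detached control libraries (log2 fold change −1.62 ± 0.03, against −1.68 ± 0.03 in attached cells). RMDN3 (−0.90 ± 0.08 in detached and −0.92 ± 0.08 in attached cells), EI24 (−0.87 ± 0.05 and −0.89 ± 0.05), FAM174A (−1.02 ± 0.09 and −1.07 ± 0.09) and PADI2 (−0.77 ± 0.07 and −0.77 ± 0.07) had values within their errors of each other in both states. INA fell by 1.01 in detached and by 0.82 in attached cells. ID1 (−0.42 ± 0.07 in detached and −0.96 ± 0.07 in attached cells), ID2 (−0.62 ± 0.13 and −1.34 ± 0.13) and ID3 (−0.35 ± 0.05 and −0.58 ± 0.05) had values nearer 0 in detached cells. Over all 162 genes called lower in attached cells, the median log2 fold change in detached cells was −0.37 and 157 had the same sign there.

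Of the 86 genes called higher, 80 had a smaller value in detached cells. The other 6 were those called higher in both states, such as ZFAS1 (0.44 ± 0.06 in detached and 0.31 ± 0.06 in attached cells) and ASNS (0.37 ± 0.04 and 0.24 ± 0.04). The median of the 86 in detached cells was 0.12, with 70 of 86 of the same sign, and 68 of the 86 had a detached value less than 0.5 times the attached one, against 33 of the 162 lower genes. The genes were chosen for large values in the attached libraries, which favours smaller ones in other libraries, so these counts are a description. ANGPTL4 had 107 and 97.4 FPKM in detached knockdown libraries against 102 and 96.1 FPKM in detached control libraries (0.04 ± 0.06, against 0.85 ± 0.06 in attached cells). For HBEGF the detached values were 27.7 and 26.8 FPKM against 20.5 and 19.0 FPKM in detached controls (0.45 ± 0.08), and for PLAUR 80.6 and 67.1 FPKM against 70.2 and 61.7 FPKM (0.16 ± 0.10). CDKN1A had 38.1 and 41.7 FPKM against 28.5 and 31.1 FPKM (0.41 ± 0.07), and MMP1 21.0 and 24.3 FPKM against 17.6 and 17.7 FPKM (0.34 ± 0.12). None of these 5 passed the test in detached cells (smallest limma adjusted p = 0.0563, for HBEGF). In MMP1, PLAUR, ANGPTL4 and CDKN1A the detached control libraries lay above the attached control libraries, and in HBEGF below them.

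The difference between the states, tested as the detached minus the attached log2 fold change, was called for no gene (limma, smallest adjusted p = 0.214, for ANGPTL4 at −0.81 ± 0.08, with 898 of 13438 at an unadjusted p under 0.05). Of the 86 genes called higher, 66 had an unadjusted p under 0.05 for this difference, and of the 162 called lower 41, counts that the choice of genes on the attached libraries inflates. In the same limma fit TFPI2 (−0.67 ± 0.09, unadjusted p = 8.13e-05, adjusted p = 0.375), JUN (−0.58 ± 0.08, 9.36e-05 and 0.375), ITGA6 (−0.46 ± 0.06, 0.000156 and 0.375) and ELK3 (−0.56 ± 0.09, 0.000282 and 0.375) were among those with the smallest p, chosen after their values were seen. No change is therefore shown to be particular to attached cells. Leaving out 1 library gave between 0 and 3 calls for this difference.

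**Figure D5:**
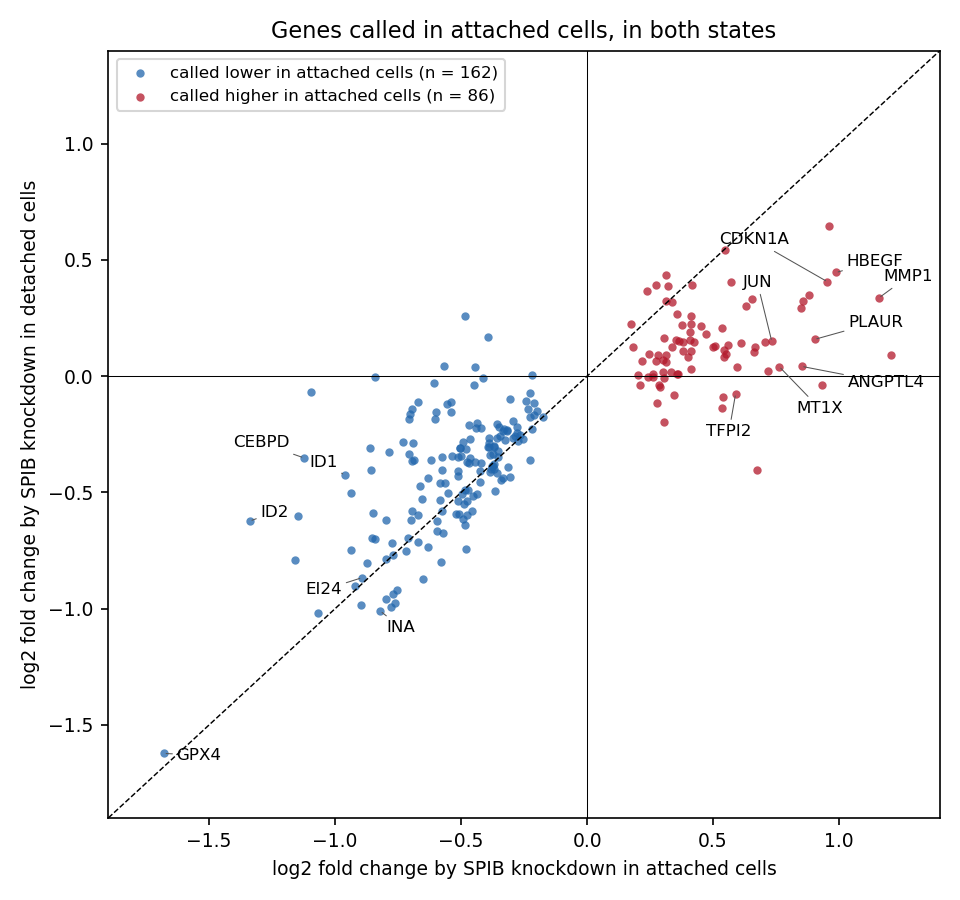
Log2 fold change by SPIB knockdown in attached cells (x axis) and in detached cells (y axis) for the genes called lower (blue, 162) and higher (red, 86) in attached cells; the dashed line marks equal values, and 3 points lie outside the axes. Most blue points lie on or above the dashed line, with GPX4 farthest out and on it, while most red points lie between it and 0, and the difference between the states was called for no gene.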

How the data were processed

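RNA-seq of 8 libraries was analysed, 2 for each of 4 groups, from H1703 cells that were attached or detached and carried a knockdown of SPIB or of luciferase. Per the submitters' processing notes, the authors aligned reads with HISAT to hg19 and made the deposited FPKM with Cuffnorm, and the sources used here name no versions. The deposited tables, 1 a library, hold the same 28590 loci. Summing the loci of 1 symbol left 27204 features, and 13438 with at least 1 FPKM in 2 or more of the 8 libraries were tested. The test was limma 3.58.1 in R 4.3.3, two-sided, with an intensity trend, on log2(FPKM + 1), fitted to all 8 libraries with 4 group means, and called at a Benjamini-Hochberg adjusted p under 0.05. A pseudocount of 1 understates the fold change of low genes. FPKM hold no read totals, so the depth and its counting error are unknown. In 53 loci a value of 0 in 1 library stood against 10 FPKM or higher elsewhere, which may be a failed estimate, and 21 of these were tested.

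Genes were named by rule. These were the 10 largest increases and decreases among called single genes, with clone names, pseudogenes and ribosomal protein genes left out. Also named were up to 3 called members of each list with the smallest p, SPIB, GPX4, INA and a few autophagy genes. A rule for genes called for the difference between states named none, since none was called. Other genes were named after their values were seen, as were 6 lists said to be so in the text. The comparison, the genes and all lists were chosen with earlier results of these data known. Promoter sequences are those of RefSeq, GRCh38.p14. The test was checked on simulated data. Alternatives covered pseudocount, filter, scaling, trend, merged loci, replicate block and leaving out each library. No set test was run.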

Additional observations from a re-analysis of the deposited data

How the results depend on the processing

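A fit to the attached libraries alone uses fewer samples, and a fit without the filter tests more genes. No cause of a changed count was tested. The number of genes called in attached cells was 248 as reported. It was 46 with the attached libraries alone, 110 without a filter on low values and 66 without the intensity trend. It lay between 38 and 143 when 1 library was left out, where fewer samples enter the fit. It stayed between 198 and 301 in the other 11 settings planned. Rescaling to totals without small RNA, rRNA and mitochondrial genes gave 61 higher and 182 lower calls against 86 and 162. The number called the same way in both states, 69, was 38 without the filter and 23 without the trend, and between 9 and 33 without 1 library. For the difference between states it was 0, and 0 to 3 without 1 library. A replicate block over all 8 libraries gave 198 calls in attached cells, 54 in both states and 0 for the difference. The labels give the replicates only a number, and the deviations of same-numbered attached libraries correlated at −0.19, or at 0.03 without loci that may be failed estimates, and those of the detached knockdown and control libraries at 0.27, or at 0.12. As not every pair passed 0.1, the numbers are not taken to pair the samples. Chosen after seeing the data, the block within the attached libraries gave 4 calls and the crossed pairing 40. The SPIB locus was not called in any setting. Of the called named genes that were followed through the settings, none changed sign. Sign changes of named genes that were not called were not counted, and some named genes were not followed. Over all settings, 605 results on single named genes lost their call, and TIMP1 was called under the replicate block (adjusted p = 0.0411).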
